A study of Danio rerio with 4 samples.

Results

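The genes described are 8 proposed members of the homeobox transcription factor genes of the pharyngeal arches: msx1a, msx1b, msx2b, msx3, barx1, emx2, gsc and nkx3.2, taken by gene name from a deposited table of transcript abundance and summed per gene, 8 of 26267 genes in all. The table spells 7 of these names in the same way and gives the last as nkx3-2, a spelling that the RefSeq gene table pairs with nkx3.2. Of the 8 members, 7 reached a mean of 1 TPM over the samples and were tested, among 14217 tested genes, and gsc did not. TPM is a unit of transcript abundance that is divided by transcript length and sums to the same value in every sample, so levels can be set side by side between genes, but it keeps no read depth.

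RNA was sequenced in bulk from zebrafish (Danio rerio) cells sorted for the sox10:DsRed reporter, a red fluorescent protein under the control of a neural crest gene. All embryos were at 20 hours post fertilization, and both groups carried the reporter. Samples of the mutant group are titled nr2f2;nr2f5, whereas their genotype field records nr2f5 as mutant and leaves nr2f2 unknown, so the embryos pooled in a mutant sample may differ in nr2f2. Each group held 2 samples, called biological replicates in the titles. The design text lists 88 and 35 pooled embryos for the mutant group and 110 and 120 for the wild-type group, without tying them to replicate numbers. The question behind the series is what Nr2f nuclear receptors do in the choice of fate of cranial ectomesenchyme, the crest-derived tissue that forms the facial skeleton.

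Homeobox genes encode transcription factors that bind DNA through a homeodomain, and in the arches their overlapping domains give skeletal precursors their position. Msx genes are induced by Bmp signals in neural crest and in arch mesenchyme, where they act mainly as repressors. Ventral arch cells respond to Bmp and endothelin signals with Msx, Dlx and Hand genes, intermediate cells with Nkx3.2 at the future jaw joint, and cells of the cartilage condensations with Barx1.

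As a check of the labels, nr2f5 had 579 and 559 TPM in the wild-type pair and 46.5 and 47.1 TPM in the mutant pair (limma, log2 fold change -3.58 ± 0.12, SE, n = 2 per group, adjusted p = 1.1e-06). For nr2f2, which the mutant titles also name, the wild-type values were 73.5 and 59.3 TPM and the mutant values 67.2 and 51.7 TPM, and no difference was called (log2 fold change -0.16 ± 0.20, adjusted p = 0.67). Of 14 markers fixed to define neural crest, 14 were tested, 4 rose, 3 fell and 7 were not called, and their summed level was 3410 to 3477 TPM in mutant and 3378 to 3520 TPM in wild-type samples. Among them crestin (log2 fold change 0.91) and inka1a (0.70) rose, and twist1a (-0.93) and snai2 (-0.96) fell. Of the 4 fits that left out 1 sample, crestin, inka1a and snai2 were called in 2 and twist1a in 3. Markers of other cells were also present. The myeloid sum was 22.9 and 33.1 TPM in mutant against 174 and 268 TPM in wild-type samples, and 6 of 8 tested genes fell, spi1b, ncf1, lcp1 and cebpa having the smallest p. The skeletal muscle sum was 92.5 to 225 TPM in mutant against 652 to 2080 TPM in wild-type samples (3 of 12 fell, smyhc1, unc45b and desma), and the endothelial sum was 34.0 to 46.0 against 60.1 to 119.5 TPM (2 of 9 fell, stab2 and fli1b). Of the fits that left out 1 sample, stab2 was called in 1 of 4, fli1b in 0 of 4 (adjusted p up to 0.085 and 0.23), cebpa, unc45b and desma in 3 of 4, and spi1b, ncf1, lcp1 and smyhc1 in 4 of 4. In bulk samples fewer cells of a type and less RNA per cell cannot be told apart.

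The member with the smallest p was msx3, a gene whose mouse counterpart is restricted to the dorsal neural tube. Its level was 152 TPM in mutant replicate 1 and 108 TPM in mutant replicate 2, and 77.9 TPM in wild-type replicate 1 and 67.4 TPM in wild-type replicate 2. The groups did not overlap, the mutant samples being higher, as for 18.2% of all tested genes. The closest pair of samples across groups differed by 1.39-fold, against 1.41-fold between the mutant replicates and 1.15-fold between the wild-type replicates. The gene rose, with a log2 fold change of 0.82 ± 0.19 on the log2(TPM + 1) scale (limma, SE, n = 2 per group, adjusted p = 0.041). This was the only member called, 1 of 7 tested, where 1.13% of all tested genes rose and 4.08% changed in either direction.

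The call of msx3 rests on each of 3 samples: adjusted p was 0.22 without mutant replicate 1 (log2 fold change 0.57), 0.067 when mutant replicate 2 was left out (1.06) and 0.11 when wild-type replicate 2 was (0.71). It was also lost when low genes were kept in the fit (adjusted p = 0.41), in a test per transcript (0.090) and with limma's plain moderation, without trend and robust (0.22).

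Markers of the dorsal neural tube were examined beside msx3. Of 14 fixed genes, 11 were tested, 0 rose, pax7a fell and 10 were not called. The fall of pax7a (limma, adjusted p = 0.049) was not called in 3 of the 4 fits that left out 1 sample. The pax7a call was also lost with pseudocounts of 0.1 and 5 TPM (limma, both adjusted p = 0.055) and per transcript (0.11). Median-ratio scaling (0.059), quantile normalization (0.054) and a test per gene ID (0.060) ended it too. Among the 11 tested genes the groups did not overlap for 8. The mutant pair lay above for 7 and below for 1, pax7a, against 18.2% and 34.9% of all tested genes. The median log2 fold change of the 11 was 0.59, against -0.16 for all tested genes. A positive median was not particular to this list. It was 0.43 for the 14 neural crest markers, with the mutant pair above for 7 and below for 4. For the 10 tested otic vesicle markers it was 0.38, with the mutant pair above for 4 and below for 3. The summed level was 414 and 229 TPM in the wild-type pair against 425 and 275 TPM in the mutant pair, so the groups overlapped. The sum includes pax3a, pax7a and pax7b, which neural crest cells also express. Without these 3, a choice made after the values were seen, the sums did not overlap. They were 123 and 86.0 TPM in the wild-type pair against 202 and 133 TPM in the mutant pair. The 3 include pax7a, the only marker called, so the trimmed sums cannot show a rise of the list. The called marker, pax7a, had wild-type values of 85.7 and 64.6 TPM and mutant values of 45.2 and 37.8 TPM. The part of such cells in the msx3 result was not tested.

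The gene msx1a, one of a pair of zebrafish genes related to mammalian Msx1, also stood higher in both mutant samples, with wild-type values of 20.1 and 22.6 TPM and mutant values of 37.5 and 27.4 TPM. The groups did not overlap, with the mutant pair above, as for 18.2% of all tested genes. The difference was not called (limma, log2 fold change 0.57 ± 0.24, adjusted p = 0.22, unadjusted p = 0.041). An unadjusted p under 0.05 was reached by 20.4% of all tested genes and, with the higher value in mutant cells, by 6.05%. It had 2 transcripts with values. The larger one carried 85.6% and 87.5% of the gene in mutant and 92.0% and 87.5% in wild-type samples, and the smaller one had wild-type values of 1.60 and 2.83 TPM and mutant values of 5.41 and 3.42 TPM.

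The most abundant member was msx1b, the other gene of that pair, with wild-type values of 229.6 and 167 TPM and mutant values of 212 and 201 TPM. The mutant samples lay between the wild-type samples. The log2 fold change was 0.07 ± 0.16 (adjusted p = 0.82) and turned to -0.16 without wild-type replicate 2.

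The gene msx2b, a zebrafish Msx2 gene, had wild-type values of 33.2 and 28.3 TPM and mutant values of 31.8 and 33.6 TPM. The groups overlapped (log2 fold change 0.09 ± 0.21, adjusted p = 0.84), and the sign turned to -0.02 without wild-type replicate 2. Its second transcript was near 0 in every sample. A further Msx gene outside the members, msx2a, was listed at 0 in 3 samples and at 0.156 TPM in wild-type replicate 2.

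**Figure D1:**
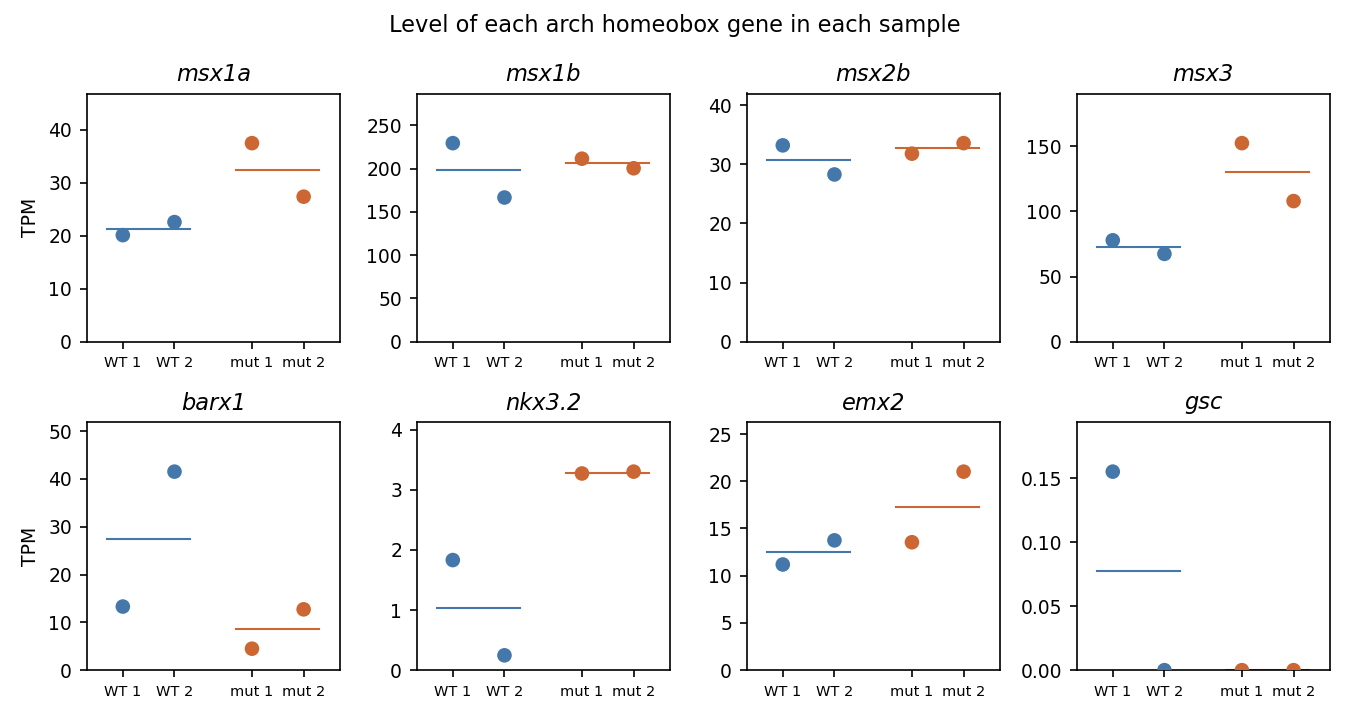
TPM (vertical axis, from 0, a scale of its own in each panel) of each of the 8 members in wild-type (WT, blue) and mutant (mut, orange) replicates 1 and 2. Points are samples and lines are group means of 2 samples. For msx3 the mutant samples stand at 152 and 108 TPM and the wild-type samples at 77.9 and 67.4 TPM, whereas the samples of both groups interleave for msx1b.

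Shares within the summed TPM of the 4 Msx members do not depend on how a library is scaled. The sum was 361 and 285 TPM in the wild-type pair and 433 and 369.5 TPM in the mutant pair. The groups did not overlap, with the mutant pair above, as for 18.2% of all tested genes. Of the 4 genes msx3 alone was called, and msx1b and msx2b overlapped in TPM, so the sum does not show a rise of each gene. Of this sum msx3 made up 35.2% and 29.2% in mutant and 21.6% and 23.7% in wild-type samples, a mean difference of 9.59 percentage points. The share of msx1b was 48.8% and 54.3% in mutant and 63.6% and 58.5% in wild-type samples, a mean difference of -9.52 percentage points. The groups did not overlap for either share, where the TPM of 53.2% of all tested genes did not overlap in either direction. Shares are parts of 1 whole, so a higher msx3 share lowers the others and these differences are not separate results. In TPM msx1b was not called (limma, log2 fold change 0.07 ± 0.16, adjusted p = 0.82). An exact two-sided permutation test over the 4 samples gave p = 0.333 for both shares, which is the smallest p that 2 samples against 2 can give. The share of msx2b was 7.34% and 9.09% in mutant and 9.21% and 9.93% in wild-type samples (exact permutation p = 0.333). The groups did not overlap for this share either. That of msx1a was 8.65% and 7.41% in mutant against 5.57% and 7.92% in wild-type samples (exact permutation p = 0.667), and there the groups overlapped. In all 4 samples msx1b was the largest part of the sum and msx3 the next. When 1 sample was left out, the difference in the msx3 share ran from 6.61 to 12.6 percentage points.

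**Figure D2:**
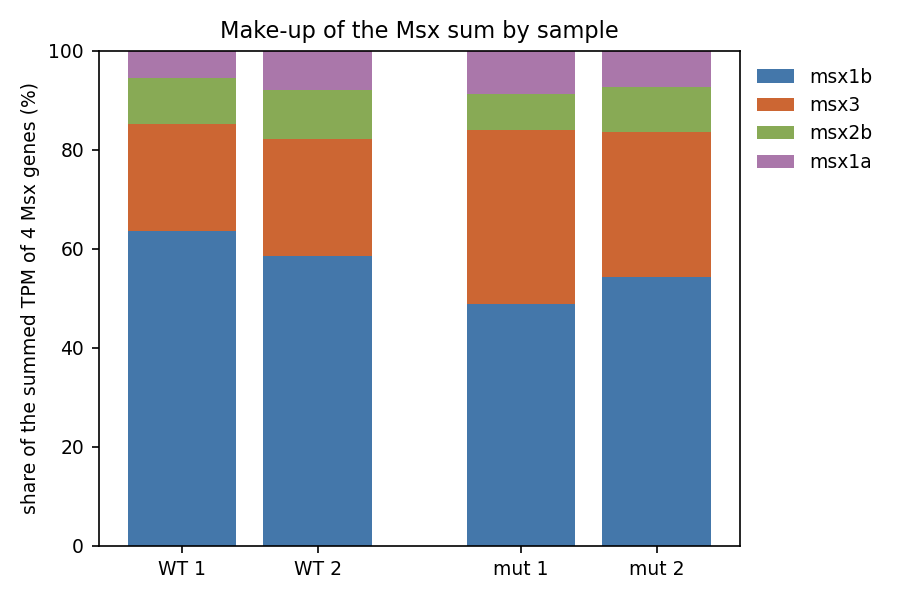
Share (vertical axis, percent) of each of 4 Msx genes in their summed TPM, in wild-type (WT) and mutant (mut) replicates 1 and 2. The msx3 part is 21.6% and 23.7% in wild-type and 35.2% and 29.2% in mutant samples.

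Among the genes of cartilage and joint, barx1 stood lower in mutant cells. In zebrafish barx1 promotes cartilage in the arches and keeps joint identity out of the condensations. Its wild-type values were 13.3 and 41.5 TPM and its mutant values 4.49 and 12.7 TPM. The groups did not overlap, with the mutant pair lower, as for 34.9% of all tested genes, but mutant replicate 2 and wild-type replicate 1 differed by little, and replicates differed by 2.83-fold within the mutant and 3.12-fold within the wild-type group. The difference was not called (log2 fold change -1.51 ± 0.68, adjusted p = 0.29). Leaving out wild-type replicate 2 gave -0.72, and leaving out mutant replicate 1 gave -0.85. Leaving out wild-type replicate 1 gave -2.29, and leaving out mutant replicate 2 gave -2.17.

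Wild-type replicate 2, the sample with the highest barx1 level, also held the highest summed epidermis and fin fold markers. The sum was 3625 TPM there against 565 TPM in the other wild-type sample. In the mutant pair the order was the other way. Mutant replicate 2 had the higher barx1 level but the lower sum, 449 TPM against 620 TPM in mutant replicate 1. Single tested genes of the list went both ways from mutant replicate 1 to 2. Higher, like barx1, were epcam (6.51 to 25.5 TPM), krt5 (4.48 to 7.43) and krt8 (242 to 263). Lower were krt4 (246 to 83.3 TPM), cyt1 (97.6 to 58.0), tp63, cdh1, cldni and krt97. Of the 13 genes of that list 9 were tested, cdh1 and krt97 fell, 0 rose and 7 were not called. Each of these falls was called in 1 of the 4 fits that left out 1 sample (adjusted p up to 0.28 for cdh1 and 0.16 for krt97), and that of cdh1 was also lost with quantile normalization (0.099) and per transcript (0.26). Wild-type replicate 2 also had the highest muscle and myeloid sums. Mutant replicate 2 had a lower muscle sum than mutant replicate 1 (92.5 against 225 TPM) and a higher myeloid sum (33.1 against 22.9 TPM). The part of these cells in the barx1 values was not tested.

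The gene nkx3.2, required in zebrafish for the jaw joint, was near the lower end of what was tested. Its wild-type values were 1.83 and 0.247 TPM and its mutant values 3.27 and 3.30 TPM. The groups did not overlap, with the mutant pair above, as for 18.2% of all tested genes, and wild-type replicate 2 was far below the other 3. The difference was not called (log2 fold change 1.19 ± 0.47, adjusted p = 0.19), and it depended on the pseudocount, at 2.05 with 0.1 TPM and 0.47 with 5 TPM. Without wild-type replicate 2 it was 0.60, and without wild-type replicate 1 it was 1.78.

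The gene emx2 has roles in the forebrain and, in zebrafish, in the orientation of sensory hair cells. Its wild-type values were 11.2 and 13.7 TPM and its mutant values 13.5 and 21.0 TPM. The groups overlapped, since mutant replicate 1 lay just under wild-type replicate 2, and the difference was not called (log2 fold change 0.42 ± 0.30, adjusted p = 0.46). Of 13 forebrain and eye markers 12 were tested and none was called. Their sum was 66.7 and 55.9 TPM in the wild-type pair against 47.7 and 41.2 TPM in the mutant pair, lower in both mutant samples; six3b and hesx1 had the highest means. Of 12 otic vesicle markers, 10 were tested, dlx3b fell, 0 rose and 9 were not called. The sum was 240.3 and 249 TPM in the wild-type pair against 173 and 194 TPM in the mutant pair, and without dlx3b, left out after its values were seen, it was 165 and 122 TPM against 156 and 166 TPM.

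The gene gsc, which acts in arch patterning and before that in the gastrula organizer, had a value above 0 in wild-type replicate 1 alone, 0.155 TPM, and was listed at 0 in the other 3 samples. These values came from 1 of 4 transcripts under 3 gene IDs of that name. It was not tested, and with depth unknown no limit on its level can be given.

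**Figure D3:**
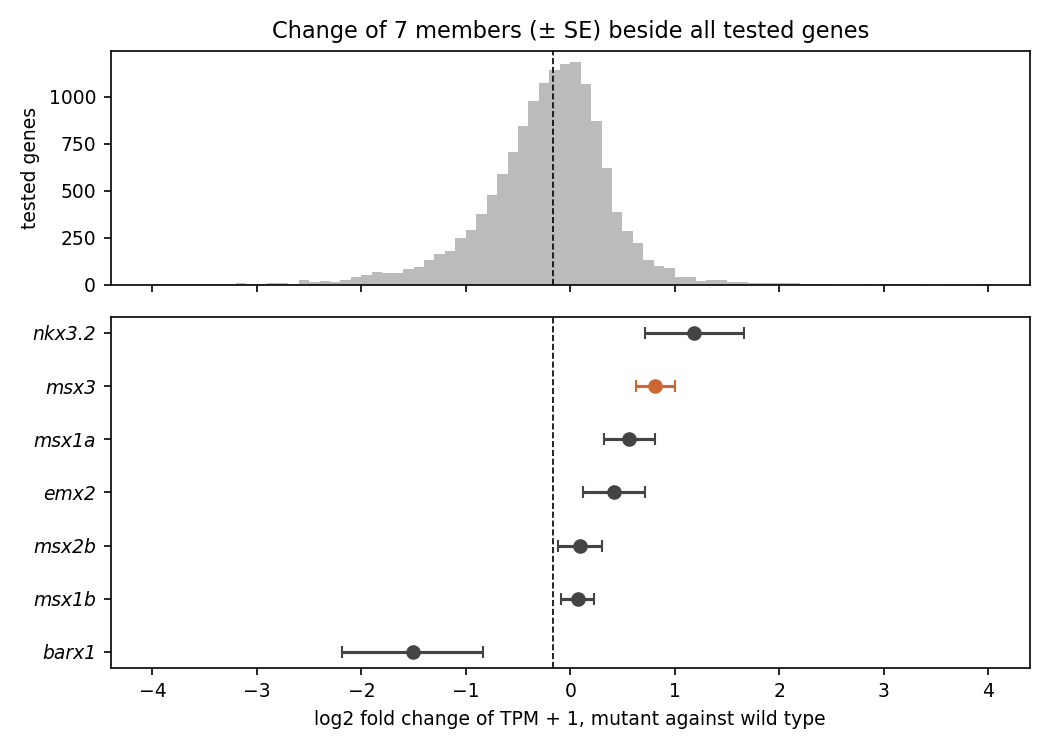
Log2 fold change of TPM + 1, mutant against wild type (horizontal axis). Above, the number of tested genes per interval (values beyond the axis are placed at its ends), and below, the 7 tested members with SE, msx3 in orange as the member called; the dashed line is the median of all tested genes, -0.16. The member barx1 lies to the left of the line, at -1.51, and the other 6 to the right.

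Over the 7 tested members, 1 rose, 0 fell, where 2.95% of all tested genes fell, and 6 were not called. The mutant pair lay above the wild-type pair for 3 (msx1a, msx3 and nkx3.2) and below it for 1 (barx1), and the groups overlapped for 3. Among all tested genes 53.2% did not overlap, 18.2% with the mutant pair above and 34.9% with it below. The median log2 fold change of the members was 0.42, against -0.16 for all tested genes. Relative to that median, msx3 stood at 0.98, msx1a at 0.73, emx2 at 0.58, msx2b at 0.25, msx1b at 0.24, nkx3.2 at 1.35 and barx1 at -1.35. By median-ratio scaling, which brings the median of all genes close to 0, msx3 had a log2 fold change of 1.00 (adjusted p = 0.0077) and msx1a one of 0.74 (0.085). Of the 580 genes called, 27.8% rose. Under median-ratio scaling 47.5% of the 758 genes called there rose, and under quantile normalization 48.1% of 489.

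In wild-type cells the order of levels was msx1b (mean 198 TPM), msx3 (72.6), msx2b (30.8), barx1 (27.4), msx1a (21.3), emx2 (12.5), nkx3.2 (1.04) and gsc. The ranges of barx1 and its neighbours msx2b and msx1a overlapped, and those of the other neighbours in the order did not. The wild-type range of barx1 (13.3 to 41.5 TPM) also overlapped that of emx2 (11.2 to 13.7 TPM), not its neighbour. In mutant cells barx1 (mean 8.61 TPM) came after emx2 (17.3), and msx2b (32.7) and msx1a (32.4) overlapped. Among 53 homeobox genes of the members, their relatives and other arch genes, msx1b was the second most abundant in both groups, after dlx2a, and msx3 was the sixth in wild-type and the fourth in mutant cells.

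**Figure D4:**
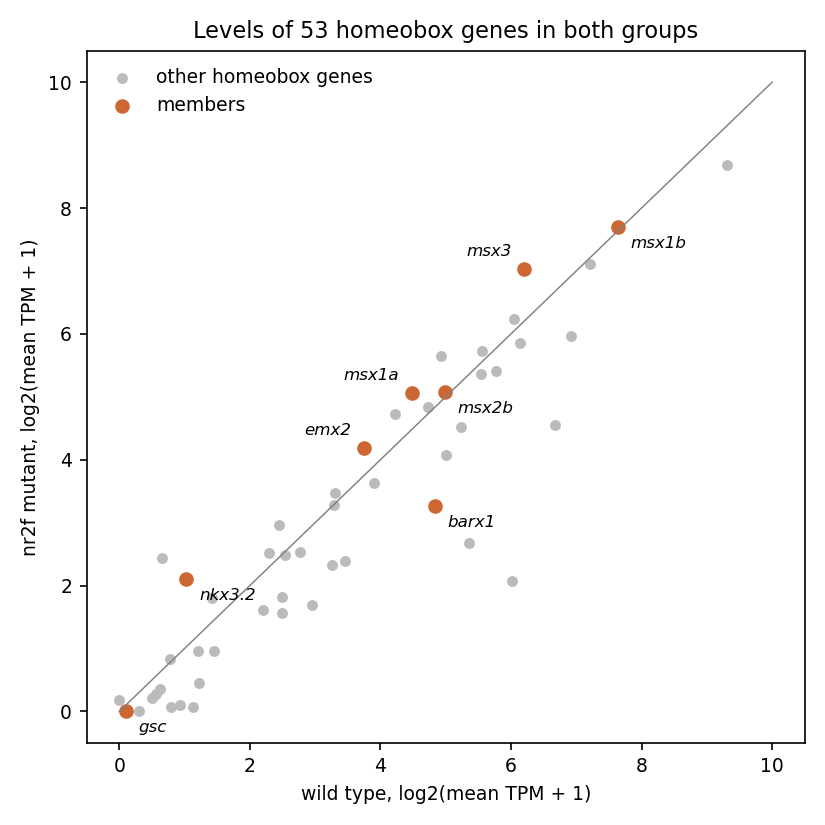
Mean level, as log2(mean TPM + 1) over 2 samples, in wild-type (horizontal axis) and mutant cells (vertical axis) of 53 homeobox genes, the 8 members in orange and the others in grey. The line marks equal levels: msx3 and msx1a lie above it, barx1 below it and msx1b and msx2b close to it.

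Several other homeobox genes of arch mesenchyme fell. Of 38 fixed genes, 35 were in the table and 26 were tested, of which 5 fell, 0 rose and 21 were not called, with a median log2 fold change of -0.34. Among all tested genes 2.95% fell. For this list the mutant pair lay below for 12 and above for 2, against 34.9% and 18.2% of all tested genes. The gene dlx3b is also among the otic vesicle markers. The distal-less genes dlx4b, dlx3b and dlx2a fell by 2.59 ± 0.38, 2.12 ± 0.30 and 0.63 ± 0.14 on the log2 scale (limma, SE, n = 2 per group, adjusted p = 0.0069, 0.0075 and 0.033), and the paired-type gene prrx1b fell by 3.91 ± 0.35 (adjusted p = 6.2e-04). Leaving out mutant replicate 1 ended the calls of dlx4b, dlx3b and dlx2a (adjusted p = 0.079, 0.053 and 0.20), leaving out mutant replicate 2 those of dlx4b and dlx2a (0.061 and 0.062), and leaving out wild-type replicate 2 that of dlx2a (0.095). Median-ratio scaling ended the calls of dlx3b (0.057) and dlx2a (0.21). Of 10 relatives of the members, 7 were tested and none was called. The mutant pair lay below for 2 and above for 1, against 34.9% and 18.2% of all tested genes. The gene gsx2 had wild-type values of 8.51 and 8.59 TPM and mutant values of 4.63 and 3.43 TPM (limma, adjusted p = 0.15). The 1 relative above was noto, with wild-type values of 0.61 and 0.53 TPM and mutant values of 6.11 and 2.70 TPM (limma, adjusted p = 0.067).

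Genes of the Bmp pathway, which induces Msx genes, were mostly not called, as were most tested genes, of which 4.08% were called. Of 10 ligand genes 6 were tested and none was called (median log2 fold change -0.39). The ligand gene with the highest mean, bmp5, had wild-type values of 36.1 and 27.7 TPM and mutant values of 16.8 and 11.7 TPM (adjusted p = 0.051), and bmp7b had 7.47 and 5.68 TPM against 3.83 and 5.80 TPM. None of 15 receptor and Smad genes was called (median -0.41). The mutant pair lay below for 8 and above for 3, against 34.9% and 18.2% of all tested genes. The 2 with the highest means, smad1 and smad5, were among those above. The gene smad1, which carries the Bmp signal to the nucleus, had wild-type values of 44.9 and 38.1 TPM and mutant values of 73.5 and 57.5 TPM (limma, adjusted p = 0.11). The gene smad5 was not called either (0.33).

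Of 18 antagonist genes 15 were tested, and bambia, a decoy receptor that is itself induced by Bmp, rose, with wild-type values of 16.9 and 22.0 TPM and mutant values of 34.8 and 51.8 TPM (adjusted p = 0.046, log2 fold change 1.099 ± 0.26). Another 14 were not called. Of 14 Bmp target genes outside the members, id3 and bambia rose, tbx2b fell and 11 were not called. Among all tested genes 1.13% rose and 2.95% fell. The gene id3, an inhibitor of basic helix-loop-helix factors, had wild-type values of 147 and 139.8 TPM and mutant values of 268 and 229 TPM (adjusted p = 0.012, log2 fold change 0.79 ± 0.13). The T-box gene tbx2b fell by 1.08 ± 0.21 (adjusted p = 0.021). The call of bambia was lost with pseudocounts of 0.1 and 5 TPM (both adjusted p = 0.051) and without mutant replicate 1 (0.083), mutant replicate 2 (0.36) or wild-type replicate 1 (0.13). For id3 it was lost without mutant replicate 1 (0.11) and without mutant replicate 2 (0.065), and for tbx2b without any single sample (0.052 to 0.13).

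Of 14 genes of ventral and intermediate arch signalling, 12 were tested, 0 rose, 11 were not called and the endothelin receptor gene ednraa fell. Its log2 fold change was -2.03 ± 0.41 (limma, adjusted p = 0.026). Per transcript (adjusted p = 0.061) and per gene ID (0.058, log2 fold change -1.79) ednraa was not called. The call was lost without mutant replicate 1 (log2 fold change -1.57), mutant replicate 2 (-2.49) or wild-type replicate 1 (-1.70). Another endothelin receptor gene, ednrab, was more abundant and stood higher in both mutant samples, but was not called (limma, adjusted p = 0.070). In this list the mutant pair lay above for 2 tested genes and below for 5, against 18.2% and 34.9% of all tested genes. The higher level of ednrab was thus not the direction of most non-overlapping genes of the list. The gene ednrab had wild-type values of 481 and 329.5 TPM and mutant values of 654 and 850 TPM. Of 15 genes of the jaw joint and cartilage programme, to which barx1 and nkx3.2 relate, 9 were tested and 8 were not called. The cartilage regulator sox9a fell by 1.21 ± 0.27 (limma, adjusted p = 0.036). That call was lost without any 1 of the samples (log2 fold change -1.38 to -1.05). It was also lost with quantile normalization (adjusted p = 0.052) and per transcript (0.10).

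Among 177 tested genes of the other lists, those whose profile over the 4 samples was closest to a member were found by the root-mean-square difference of log2(TPM + 1) values centred on their mean, a description over 4 samples only. For msx3 these were otomp and pax8, at 0.04 and 0.08, for msx1a they were zic5 and hoxb2a (0.07 and 0.10), for msx1b meis1a and meis1b (0.08 and 0.10), for msx2b id2a and tfap2e (0.07 and 0.12), and for emx2 pbx1a and twist1b (0.18 and 0.20). The gene otomp had wild-type values of 0.565 and 0.396 TPM and mutant values of 2.27 and 1.20 TPM. For pax8 they were 1.56 and 1.22 TPM in wild-type and 3.79 and 2.94 TPM in mutant samples. Both genes lay far under the level of msx3. At such levels the added 1 TPM shrinks differences, so closeness on this scale is not a like fold change in TPM. No gene came as close to barx1, for which the nearest were mpeg1.1 and dlx3b at 0.42 and 0.48.

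**Figure D5:**
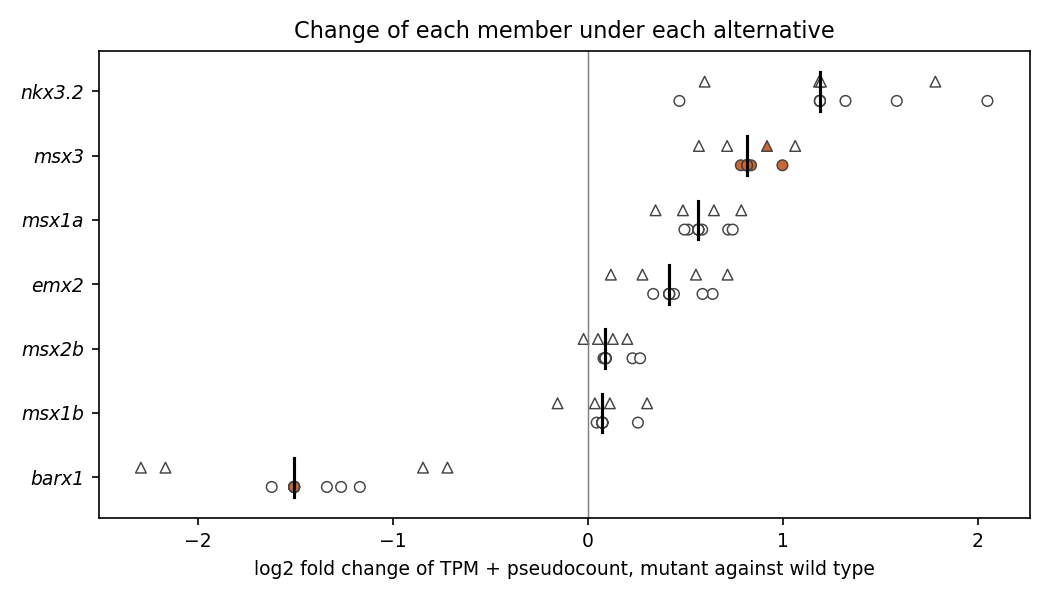
Log2 fold change, mutant against wild type (horizontal axis), of each tested member under each alternative. The black bar is the value reported, triangles leave out 1 sample, circles are other alternatives, and filled symbols have an adjusted p under 0.05; msx3 ranges from 0.57 to 1.06, and barx1 from -2.29 to -0.72 with 1 filled circle, the replicate block.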

How the data were processed

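The authors deposited 1 table of TPM, with 65905 Ensembl transcripts in rows and 4 samples in columns. Per the submitters' processing notes, the tool was kallisto and the genome build GRCz11; version, annotation release and other steps are not given in the sources used here. Of the rows, 57775 had values, and each column summed to 1e+06. TPM keeps no depth, so no counting interval, detection limit or count model was used.

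TPM was summed per gene name, or gene ID where the name was blank. Genes averaging at least 1 TPM over the samples were tested on log2(TPM + 1) with limma 3.58.1 in R 4.3.3 (trend and robust, statmod 1.5.0), two-sided, with Benjamini-Hochberg adjustment over all genes tested, and called at an adjusted p under 0.05; "rose" and "fell" mean called. Errors are moderated SE, which pool the spread over genes. The labels do not say that replicates came from separate crosses. Members and the 17 gene lists were chosen with earlier results of these data known. Named genes are the members, their relatives, up to 4 called genes with the smallest p per list or, with none called, the 2 of highest mean, and the nearest profiles. Outside this rule, ednrab and the uncalled tested epidermis and fin fold markers are also named. A gene that this rule names is not reported here.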

Additional observations from a re-analysis of the deposited data

How the results depend on the processing

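The number of genes called was 580. It was 0 with no filter on low values (3448 at an unadjusted p under 0.05), 4 when genes at 0 in all samples were left out of that fit, an alternative chosen after seeing the data, and 0 with limma without trend and robust (2531 at an unadjusted p under 0.05), and it ran from 110 to 647 when 1 sample was left out, the lone sample of a group being assumed to vary like the others. The number of members called was 1, and it was 0 under these 3 alternatives and per transcript, and 0 to 1 when 1 sample was left out. Where 1 sample was left out, the share of the Msx sum differed by 0.11 to 2.45 points for msx1a, -12.2 to -6.80 for msx1b, -2.23 to -0.47 for msx2b and 6.61 to 12.6 for msx3. With 1 sample left out, the log2 fold change ran from -0.16 to 0.30 for msx1b and from -0.022 to 0.20 for msx2b. Both signs reversed without wild-type replicate 2, and those of the other 5 tested members did not reverse under any alternative run. Of 25 called genes named outside the members, 5 (lcp1, ncf1, prrx1b, smyhc1 and spi1b) were called with each sample left out in turn, and 20 lost the call in 1 or more of these fits. With the replicate number as a block, 2 members were called, msx3 (adjusted p = 0.029) and barx1 (adjusted p = 0.029), and 565 genes in all, while the block ended the calls of cdh1 (0.071), ednraa (0.057) and fli1b (0.054) and of no other named gene. The labels do not say that the numbers pair the samples. The deviations of same-numbered samples correlated at -0.01 across genes, which cannot tell whether such samples shared a batch. For barx1, replicate 2 was higher than replicate 1 in both groups. Where no cause is given, the cause was not tested. Without read depth, values near 0, as for gsc and nkx3.2, have no stated precision.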
